A study of Mus musculus with 4 samples.

Results

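The genes described here are 10 members of the adrenergic and cyclic AMP signalling pathway of the heart, out of the 32285 genes counted in 4 libraries of mouse left ventricle. They were chosen by symbol: the receptor genes Adrb1, Adra1a and Adra1b, the adenylyl cyclase genes Adcy5 and Adcy6, the phosphodiesterase genes Pde3a, Pde4b and Pde4d, the kinase gene Prkaca and the regulator Rgs2. All 10 were found in the gene list, and every one had at least 347 unique molecular identifiers (UMIs, each marking 1 captured RNA molecule) in every library. The value used throughout is the sum of a gene's UMIs over all barcodes of a library, given as CPM, a share of the library's UMIs on a scale where 1% is 10000.

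The libraries were 1 each of sham and I/R hearts, young and aged, from male wild-type C57BL/6J mice of 3 to 5 months (young) and of 24 to 26 months (aged). I/R stands for ischemia and reperfusion: the left anterior descending coronary artery was closed for 45 min and the hearts were then reperfused for 24 h. The labels describe both sham samples as healthy tissue although their titles say sham, and they give nuclear RNA as the molecule although the library source is single-cell. The labels name no genetic change and no drug for any group, how many mice gave a library is not stated, and no library has a replicate, so that animal, preparation and condition cannot be told apart and no test between conditions was possible. Each interval printed here is a 95% interval for counting error only. In such sums, fewer cells of a type and less RNA per cell cannot be told apart either.

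Noradrenaline and adrenaline act on the heart mostly through the β1-adrenergic receptor, which is coupled to the stimulatory G protein. This G protein switches on adenylyl cyclase, the cyclic AMP that is made activates protein kinase A (PKA), and PKA phosphorylates calcium-handling and sarcomere proteins so that the beat becomes faster and stronger. Phosphodiesterases break cyclic AMP down, often close to the channel or pump where it acts. The α1-adrenergic receptors instead use the Gq protein and phospholipase C, and RGS proteins shorten the active state of G proteins.

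The members lie on 10 chromosomes, and in GENCODE M21 on GRCm38 none shares an exon on its own strand with another counted gene. On the opposite strand, exons of Adcy6 overlap Gm29331, which had 2 to 17 UMIs per library, and those of Pde3a overlap Gm28523, which had 38 to 118. Adrb1 spans chr19:56722199-56733113 on the plus strand and Rgs2 chr1:143999338-144004161 on the minus strand, the shortest member with 4824 bases. Pde4d spans chr13:108449948-109953461 on the plus strand, and with 1503514 bases it is the longest.

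Promoter windows of 250 bases before the transcription start were at hand in RefSeq (GRCm38.p6) for 7 of the 10 members, 12 windows in all. They were searched on both strands for the cyclic AMP response element TGACGTCA, the site of the CREB family, and for its shorter core TGACG, which the full element contains. The full element was in none of the 12 windows and in 1.55% of all 32851 windows of this length. The core was in 4 of the 12, in 4 different members, and in 17.8% of all windows. Those 4 windows are shown with the core, or its reverse complement, in capitals, and the window of Pde4d is shown as that of the member with the widest range between libraries, with no core in it.
Adrb1, chr19:56721867-56722116, plus strand: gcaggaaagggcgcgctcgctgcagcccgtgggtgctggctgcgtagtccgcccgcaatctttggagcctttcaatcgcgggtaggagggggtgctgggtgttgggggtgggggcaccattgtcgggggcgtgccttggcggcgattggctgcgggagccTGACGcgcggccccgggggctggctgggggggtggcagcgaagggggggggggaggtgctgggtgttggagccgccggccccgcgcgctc
Pde4b, chr4:102421305-102421554, plus strand: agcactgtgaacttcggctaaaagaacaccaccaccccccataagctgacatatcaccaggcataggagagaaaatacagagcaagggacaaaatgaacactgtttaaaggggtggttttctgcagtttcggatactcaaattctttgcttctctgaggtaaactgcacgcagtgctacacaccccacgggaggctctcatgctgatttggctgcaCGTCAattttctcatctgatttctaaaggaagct
Prkaca, chr8:83972728-83972977, plus strand: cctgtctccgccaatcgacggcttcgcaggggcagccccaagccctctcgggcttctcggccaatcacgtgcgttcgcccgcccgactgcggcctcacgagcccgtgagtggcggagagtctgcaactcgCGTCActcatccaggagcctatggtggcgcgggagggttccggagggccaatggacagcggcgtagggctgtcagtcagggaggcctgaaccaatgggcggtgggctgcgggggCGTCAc
Rgs2, chr1:144004150-144004399, minus strand: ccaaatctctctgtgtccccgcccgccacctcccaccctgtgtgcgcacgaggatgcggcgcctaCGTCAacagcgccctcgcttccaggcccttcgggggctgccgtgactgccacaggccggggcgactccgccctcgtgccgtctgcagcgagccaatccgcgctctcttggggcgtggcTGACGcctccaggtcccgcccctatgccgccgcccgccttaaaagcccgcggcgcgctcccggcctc
Pde4d, chr13:108653927-108654176, plus strand: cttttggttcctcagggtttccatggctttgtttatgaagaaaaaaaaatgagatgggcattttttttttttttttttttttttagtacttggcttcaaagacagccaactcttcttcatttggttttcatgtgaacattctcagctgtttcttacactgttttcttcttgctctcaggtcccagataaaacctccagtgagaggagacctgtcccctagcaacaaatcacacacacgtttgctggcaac
The first capital lies 90 bases before the start in Adrb1, 34 in Pde4b, 120 and 6 in Prkaca and 185 and 67 in Rgs2. A match of letters describes the window and says nothing on whether a factor binds there. Pde4b has 4 such windows, of which 1 holds the core, and the counts cannot be assigned to any of its starts. All 4 lie inside the gene, whose GENCODE start at chr4:102087543 was not covered. Prkaca has another window, from chr8:83976633, without the core. The window of Pde4d also lies inside its gene, whose GENCODE start at chr13:108449948 was not covered. Its lack of a core thus holds for this window only, and the counts of Pde4d cannot be assigned to a start either.

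Libraries differed in depth and in composition. They held 91124 to 102883 barcodes each, all used in the sums, and whether a barcode held a cell was not tested. Total UMIs ranged from 25836175 in young sham to 66767829 in aged I/R, with medians of 244 to 675 UMIs per barcode, and 1 UMI was worth 0.015 to 0.0387 CPM. Malat1, a long non-coding RNA kept in the nucleus, took 7.34% of the UMIs with sham and 2.22% with I/R in young hearts, and 2.88% and 4.33% in aged hearts. The ribosomal-repeat transcript Gm42418 took 11.5% to 19.4%, and 7.44% to 7.92% of a library's barcodes had the same sequence as a barcode of another library. The 18 cardiomyocyte markers summed to 84355 to 102939 CPM with none at 0, against 1687 to 2108 for 18 endothelial, 1188 to 2125 for 18 fibroblast and 415 to 812 for 20 macrophage markers. The 10 neutrophil markers summed to 14.4 and 23.9 CPM in the sham libraries and to 106 and 102 in the I/R libraries, with 1 of them at 0 in young sham. The 6 atrial myocyte markers summed to 239 CPM in young I/R and to 89.5 to 127 in the other libraries. The part of these shifts in the members' levels was not tested.

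Adrb1 encodes the β1-adrenergic receptor, the main catecholamine receptor of ventricular myocytes. Its level was 48.8 CPM with sham and 20.3 with I/R in young hearts, and 31.3 and 33.8 in aged hearts. The young sham library was highest and the young I/R library lowest, 2.41-fold apart, while the intervals of the 2 aged libraries overlapped. On the log2 scale young I/R was -1.27 (-1.40 to -1.14) from young sham and aged I/R 0.11 (0.01 to 0.21) from aged sham.

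Adra1a encodes the α1A-adrenergic receptor. It was at 29.8 CPM with sham and 10.3 with I/R in young hearts, and 15.5 and 29.5 in aged hearts. Young sham and aged I/R had overlapping intervals at the top, and young I/R stood lowest. The log2 ratio of I/R to sham was -1.54 (-1.72 to -1.36) in young and 0.93 (0.80 to 1.06) in aged hearts. The share of Adra1a RNA was thus lower after I/R in the young pair and higher in the aged pair.

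Adra1b, the gene of the α1B-adrenergic receptor, had another order. It was at 13.4 CPM with sham and 10.5 with I/R in young hearts, and 16.1 and 9.21 in aged hearts. Both I/R libraries lay below both sham libraries, with overlapping intervals between them. The log2 ratio of I/R to sham was -0.35 (-0.56 to -0.14) in young and -0.81 (-0.97 to -0.65) in aged hearts, the only member past 1.5-fold lower in the aged pair.

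Adcy5 and Adcy6 encode the main adenylyl cyclases of the heart, both inhibited by calcium. Adcy5 was at 26.3 CPM with sham and 18.9 with I/R in young hearts, and 23.3 and 27.3 in aged hearts, a 1.45-fold range. Only young I/R stood apart from its neighbour in this order. Adcy6 was at 93.7 CPM with sham and 43.5 with I/R in young hearts, and 59.5 and 107 in aged hearts, and no neighbouring intervals overlapped. Its log2 ratio of I/R to sham was -1.11 (-1.20 to -1.02) in young and 0.85 (0.79 to 0.92) in aged hearts, against -0.48 (-0.63 to -0.33) and 0.23 (0.12 to 0.34) for Adcy5. Both cyclase genes were thus lower after I/R in the young pair and higher in the aged pair, with the wider range in Adcy6.

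Among the phosphodiesterases, Pde3a encodes the enzyme that milrinone inhibits. Its level was 81.5 CPM with sham and 60.9 with I/R in young hearts, and 84.5 and 95.6 in aged hearts. The 2 sham libraries had overlapping intervals, and aged I/R was 1.57-fold above young I/R.

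Pde4b and Pde4d encode cyclic AMP-specific enzymes that rolipram inhibits. Pde4b was at 47.0 CPM with sham and 47.9 with I/R in young hearts, and 33.1 and 33.0 in aged hearts. Here the libraries parted by age: the log2 ratio of aged to young was -0.51 (-0.62 to -0.39) in sham and -0.54 (-0.63 to -0.45) in I/R hearts, both short of 1.5-fold. Pde4d was at 118 CPM with sham and 25.3 with I/R in young hearts, and 73.9 and 64.9 in aged hearts, with no overlap between neighbours. Its 4.65-fold range was the widest of the 10 members, and the log2 ratio of I/R to sham was -2.22 (-2.32 to -2.11) in young and -0.19 (-0.25 to -0.12) in aged hearts.

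Prkaca encodes the catalytic α subunit of PKA. It was at 71.0 CPM with sham and 71.1 with I/R in young hearts, and 66.3 and 73.4 in aged hearts. The range of 1.11-fold was the narrowest of the members, and each pair of neighbours overlapped. Rgs2, whose protein acts mainly on Gq, was at 20.5 CPM with sham and 15.9 with I/R in young hearts, and 26.9 and 23.6 in aged hearts. For Rgs2 both aged libraries lay above both young libraries, and in both ages I/R was below sham.

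**Figure D1:**
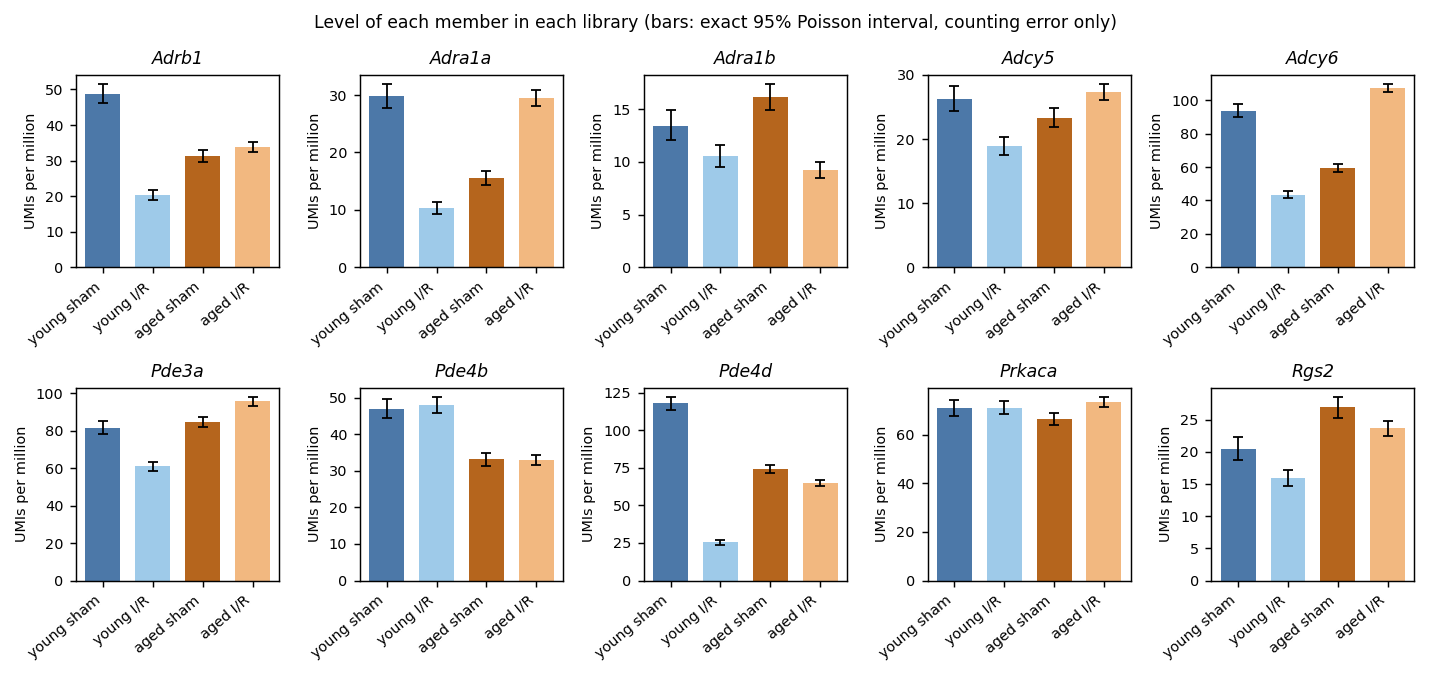
Levels of the 10 members in CPM (y axis, from 0) in the 4 libraries, 1 bar per library, with exact 95% Poisson intervals for counting error. Pde4d had the widest range, from 118 in young sham to 25.3 in young I/R, and Prkaca the narrowest, from 66.3 to 73.4.

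The comparison of young I/R with young sham asks how the pathway genes differ after I/R in young hearts. Of the 10 members 4 were past 1.5-fold lower (Adrb1, Adra1a, Adcy6 and Pde4d) and 0 past 1.5-fold higher. Over the 15465 genes that had 20 or more UMIs in the pair of libraries, 46.1% were past 1.5-fold lower and 6.36% past 1.5-fold higher. The share of members was thus near that of all genes, as was their median log2 ratio of -0.45 against -0.51 over all genes. Within this spread Pde4d stood at the low end, with 2.01% of the 12465 genes with at least 100 UMIs below it, and Adra1a and Adrb1 had 7.73% and 13.3% below them. Pde4b and Prkaca had 77.1% and 75.7% of the genes below them.

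Because most genes were lower in young I/R as CPM, ratios were also centred on the median gene-wise ratio, which added 0.44 to each log2 ratio here. On this scale the same 4 members were past 1.5-fold lower, against 26.0% of all genes, and 0 were higher, against 17.5%. Pde4d was then at -1.77 (-1.88 to -1.67), Adra1a at -1.10 (-1.27 to -0.92), Adrb1 at -0.82 (-0.95 to -0.70) and Adcy6 at -0.66 (-0.75 to -0.57). The other 6 lay between -0.04 for Adcy5 and 0.47 for Pde4b, and Adra1b, Pde3a and Rgs2 changed sign from negative to positive.

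In aged hearts the comparison of I/R with sham had 2 members past 1.5-fold higher, Adra1a and Adcy6, and 1 lower, Adra1b. Among 16761 genes, 16.7% were higher and 9.71% lower by as much. The median log2 ratio was 0.13 for the members and 0.09 for all genes. Adra1a and Adcy6 had 95.3% and 93.9% of the genes below them, and Adra1b 3.06%. Centring added -0.09 to the log2 ratios and left the same 3 members past 1.5-fold, against 13.6% of all genes higher and 12.5% lower. Adra1a was then at 0.84 (0.71 to 0.97), Adcy6 at 0.76 (0.70 to 0.83) and Adra1b at -0.89 (-1.06 to -0.73).

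Between ages in sham hearts, 4 members were past 1.5-fold lower in aged than in young, namely Adrb1, Adra1a, Adcy6 and Pde4d, and 0 were higher. The background was 19.8% lower and 8.99% higher among 15875 genes. Their log2 ratios were -0.64 for Adrb1, -0.94 for Adra1a, -0.65 for Adcy6 and -0.67 for Pde4d, and 3 of these 4 lay within 0.1 of the 1.5-fold limit. With centring, which added 0.14, only Adra1a remained past it, at -0.81 (-0.96 to -0.65), with 13.9% of all genes lower and 12.8% higher.

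In I/R hearts, 5 members were past 1.5-fold higher in aged than in young: Adrb1 by 1.66-fold, Adra1a by 2.87-fold, Adcy6 by 2.47-fold, Pde3a by 1.57-fold and Pde4d by 2.56-fold. The background was 42.7% higher and 4.38% lower among 16491 genes, and 0 members were lower by as much. Centring added -0.43 and left Adra1a, Adcy6 and Pde4d past 1.5-fold higher, with 20.9% of all genes, and put Adra1b and Pde4b past 1.5-fold lower, with 14.6%. Pde4b was then at -0.97 (-1.06 to -0.88), where as CPM it was at -0.54. The comparisons between ages use the same libraries as the comparisons of I/R with sham, so their ratios are not independent of those above.

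**Figure D2:**
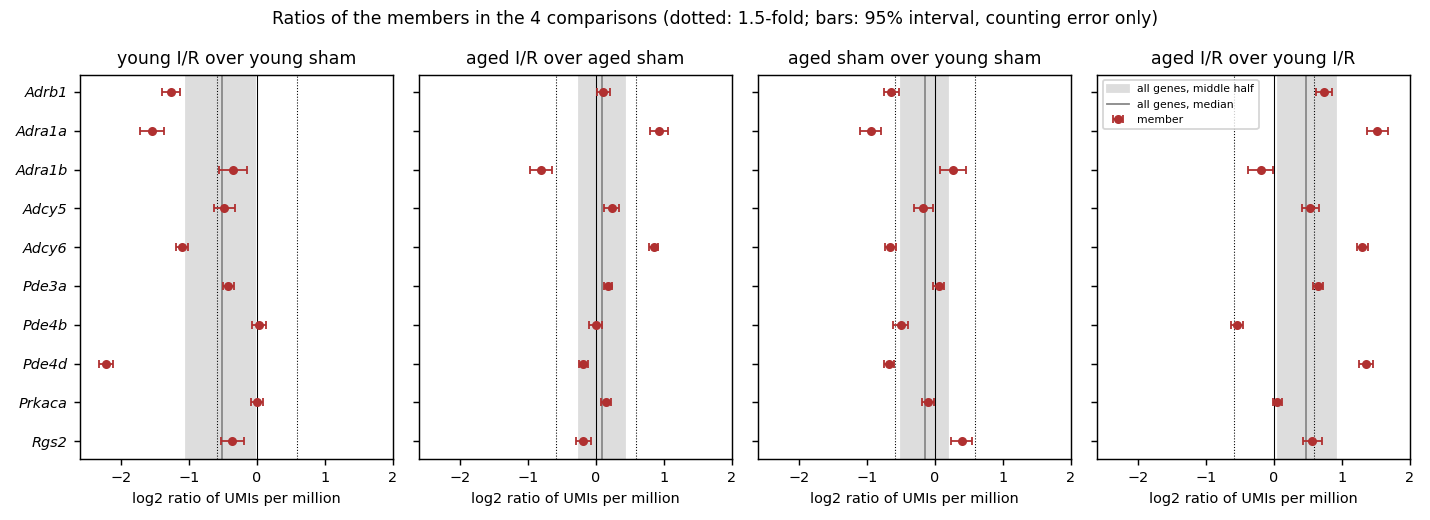
Log2 ratio of CPM (x axis) for the 10 members (y axis) in the 4 comparisons, with 95% intervals for counting error. The grey band is the interquartile range of all genes with at least 20 UMIs, the grey line their median (-0.51, 0.09, -0.14 and 0.47 from left to right), and the dotted lines mark 1.5-fold. Adrb1, Adra1a, Adcy6 and Pde4d lie left of the band in the first panel, and in the second Adra1a and Adcy6 lie right of it and Adra1b left.

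The young and aged I/R ratios come from separate libraries and can be set side by side. Over all genes the median log2 ratio was itself negative in the young pair (-0.51) and positive in the aged pair (0.09). The share of all genes with opposite signs is not given here. Adrb1, Adra1a, Adcy5, Adcy6 and Pde3a were lower after I/R in the young pair and higher in the aged pair as CPM, with intervals on either side of 0. For Adra1a and Adcy6 these signs were kept with centring, by the cardiomyocyte markers and at a matched Malat1 share. For Adrb1 the aged ratio was 0.02 (-0.08 to 0.12) after centring, -0.096 when scaled by the cardiomyocyte markers and 0.012 at the matched Malat1 share, which is described further on. For Pde3a the young ratio was 0.02 (-0.06 to 0.11) after centring and the aged ratio -0.027 by the cardiomyocyte markers. Adcy5 kept its signs on these scales too, but with its young ratio at -0.04 (-0.19 to 0.12) after centring. Its aged ratio was 0.025 by the cardiomyocyte markers. At the matched Malat1 share Adcy5 was at -0.65 in the young pair and 0.25 in the aged pair. As CPM, the aged log2 ratio exceeded the young one by 2.47 for Adra1a, 1.96 for Adcy6, 1.38 for Adrb1, 0.71 for Adcy5 and 0.60 for Pde3a. For Pde4d it exceeded it by 2.03, although both ratios were negative. The difference, aged minus young, was 0.14 for Prkaca, 0.18 (-0.02 to 0.38) for Rgs2, -0.04 for Pde4b and -0.46 for Adra1b. After centring it was -0.39 for Prkaca, -0.35 for Rgs2, -0.57 for Pde4b and -0.99 for Adra1b. Without replicates none of these differences was tested.

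**Figure D3:**
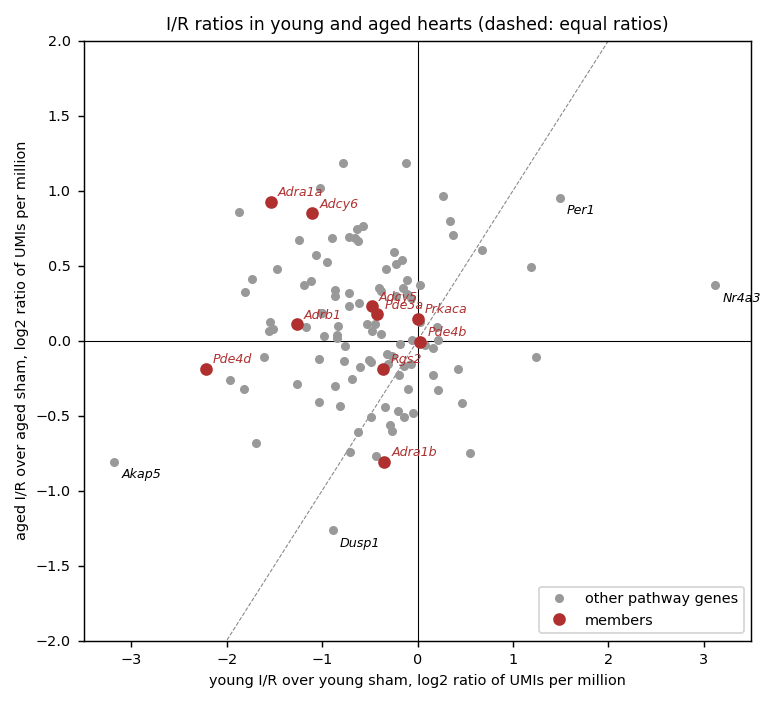
Log2 ratio of I/R to sham in CPM for young (x axis) and aged hearts (y axis): 10 members in red and, in grey, the 103 other pathway genes that had 100 or more UMIs in each pair of libraries. Adra1a and Adcy6 lie at the upper left, lower after I/R in young and higher in aged hearts, and Nr4a3 lies farthest right at 3.12.

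The rest of the pathway was followed with 119 other genes in 12 groups, written by hand from textbook roles. Compared with young sham, 52 of the 113 with at least 20 UMIs were past 1.5-fold lower in young I/R and 6 higher, with a median log2 ratio of -0.49, close to the -0.51 of all genes. In aged hearts 20 of 115 were higher and 8 lower after I/R, where 16.7% of all genes were higher and 9.71% lower. Each count of a group in the young pair is to be read against the 46.1% of all genes that were lower there, or 26.0% with centring. For counts of higher genes there the share was 6.36%, or 17.5% with centring. Counts in the aged pair are to be read against 16.7% higher and 9.71% lower, or 13.6% and 12.5% with centring. With centring the young counts became 22 lower and 20 higher, and the aged counts 11 lower and 16 higher.

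Among the other receptor genes, Adrb3 and Adra1d, both of the adrenergic family, did not exceed 0.15 CPM in any library, and Adra2a had 0 UMIs in young I/R, where 3 UMIs correspond to 0.0756 CPM. Chrm2, the muscarinic receptor that opposes β1 signalling, was at 75.4 to 104 CPM.

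Among phosphodiesterases other than the members, 10 of 12 were past 1.5-fold lower in young I/R, with a median log2 ratio of -1.24. Pde4dip, listed with them, encodes a scaffold protein that binds a phosphodiesterase rather than an enzyme. Pde7b was at 13.6 CPM in young sham and 3.48 after young I/R, which is -1.97 (-2.26 to -1.68) on the log2 scale. Pde4c followed at -1.87 (-2.23 to -1.52), and after centring 6 of the 12 were still past 1.5-fold lower. In aged hearts 3 of the 12 were higher and 1 lower after I/R, and aged I/R was above young I/R for Pde4c by 1.94 (1.63 to 2.27).

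In the group of other adenylyl cyclases 4 of 8 genes were past 1.5-fold lower in young I/R and 0 higher, and 3 of 8 were lower with centring. The 8 include Cap1 and Cap2, cyclase-associated actin regulators and not cyclases, at -0.12 and -0.18 in that pair. The 4 lower genes were the cyclase genes Adcy3, Adcy7, Adcy8 and Adcy9, so the count understates the share among cyclases. Adcy7 was at 28.1 CPM in young sham and 7.97 after young I/R, which is -1.82 (-2.01 to -1.62) on the log2 scale. In the aged pair 3 of 8 were higher and 0 lower, and the 3 include Cap1, not a cyclase, at 1.19 from 291 and 1070 UMIs.

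Of the other PKA subunits and inhibitors 0 of 8 were past 1.5-fold lower and 1 higher in young I/R, or 4 higher with centring, and 0 of 8 were past it either way in aged I/R. Between the sham libraries 3 of the 8 were higher in aged hearts, as were 8.99% of all genes. These 3 include Prkar1a, a regulatory subunit, at 0.78. Of the anchoring proteins, which hold PKA near its targets, 7 of 10 were past 1.5-fold lower in young I/R, but with centring 2 were lower and 1 higher. In the aged pair 4 of 10 were higher and 1 lower. Akap5, which binds PKA and calcineurin at the membrane, was at 8.21 CPM with sham and 0.907 with I/R in young hearts, and 4.26 and 2.43 in aged hearts. Akap9, a centrosomal and Golgi anchor, was 1.02 (0.97 to 1.06) higher on the log2 scale after I/R in aged hearts and at -1.02 in young hearts.

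Of the 10 G protein genes 0 were past 1.5-fold in young I/R, or 4 higher with centring, and 1 was higher in aged I/R. Of 6 receptor kinases and arrestins, which switch receptors off, 3 were lower in young I/R, or 2 with centring, and 0 past 1.5-fold in the aged pair. Effectors of the α1 receptors were lower in 9 of 11 genes in young I/R and in 3 with centring. In the aged pair 1 of them was higher, and 0 with centring. Plcb1, a phospholipase C gene of this group, was 1.45 (1.30 to 1.60) higher on the log2 scale in aged than in young I/R. The other RGS genes had 5 of 11 lower and 1 higher in young I/R, or 2 lower and 1 higher with centring, the higher being Rgs16 at 1.24, with 22 and 80 UMIs in the 2 libraries. Other cyclic AMP effectors had 2 of 7 lower in young I/R, or 1 with centring, and 2 of 7 lower in the aged pair, among them Hcn2, a pacemaker channel gene, at -0.77 (-0.99 to -0.55) in aged hearts. In young hearts Hcn2 was at -0.44.

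Among 10 PKA substrates of myocytes, 4 were past 1.5-fold lower and 0 higher in young I/R, near the 46.1% of all genes that were lower. With centring 2 were lower and 4 higher. In aged I/R 1 was higher and 1 lower. Ryr2, the calcium release channel of the sarcoplasmic reticulum, was at 2568 CPM with sham and 1494 with I/R in young hearts, and 1180 and 2688 in aged hearts. It had the order seen for Adra1a and Adcy6 in the aged pair, with a log2 ratio of 1.19 (1.17 to 1.20). Rrad, which restrains the L-type calcium channel, was lower after I/R in aged hearts at -0.75 (-0.79 to -0.71). In the young pair Rrad was higher, at 0.54, short of 1.5-fold.

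Genes of the CREB family and genes known to respond to cyclic AMP differed in direction among themselves: 3 of 14 were past 1.5-fold higher and 6 lower in young I/R, or 4 higher and 1 lower with centring. In aged I/R 4 were higher and 1 lower. Nr4a3, an orphan nuclear receptor, was at 1.16 CPM with sham and 10.1 with I/R in young hearts, and 2.59 and 3.34 in aged hearts. Its log2 ratio in the young pair was 3.12 (2.59 to 3.71). Per1, a clock gene that also responds to glucocorticoids, was higher in the young pair at 1.49 (1.33 to 1.66) and in the aged pair at 0.95. Dusp1, a phosphatase of the MAP kinases, was lower in the aged pair at -1.26 (-1.37 to -1.16) and in the young pair at -0.89.

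The share of Malat1 varied between the libraries in the order young sham, aged I/R, aged sham and young I/R, from the highest. Adrb1 had this same order of levels, as had Adra1a. The members were therefore compared between Malat1-rich barcodes (at least 5% of the barcode's UMIs) and Malat1-poor barcodes (under 2%) of the same library, as CPM without Malat1. This split was chosen after the data had been seen.

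In all 4 libraries Adrb1, Adra1a, Adcy6, Pde3a, Pde4b and Pde4d had higher values in the Malat1-rich barcodes. The interval of Pde3a included 0 in young sham (-0.17 to 0.50), young I/R (-0.22 to 0.35) and aged sham (-0.04 to 0.29). That of Pde4b included 0 in young I/R (-0.03 to 0.57). The mean log2 ratio over the libraries was 1.14 ± 0.46 (SD, n = 4) for Adra1a, 1.02 ± 0.46 for Adcy6, 1.01 ± 0.33 for Pde4d, 0.73 ± 0.38 for Adrb1 and 0.48 ± 0.17 for Pde4b. Pde3a was at 0.15 ± 0.081, Rgs2 at -0.01 ± 0.16, Adcy5 at -0.06 ± 0.33 and Adra1b at -0.19 ± 0.53. Prkaca was lower in the Malat1-rich barcodes of all 4 libraries, at -0.25 ± 0.078. Its interval included 0 in young sham (-0.61 to 0.05) and young I/R (-0.42 to 0.14). The 4 members past 1.5-fold lower in young I/R were the 4 with the highest ratio in this split. Mhrt, a nuclear non-coding RNA of myocytes, was at 1.86 ± 0.37. Barcodes of under 2% Malat1 held 57.4% of the UMIs in young I/R, 40.3% in aged sham, 6.39% in aged I/R and 3.80% in young sham.

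**Figure D4:**
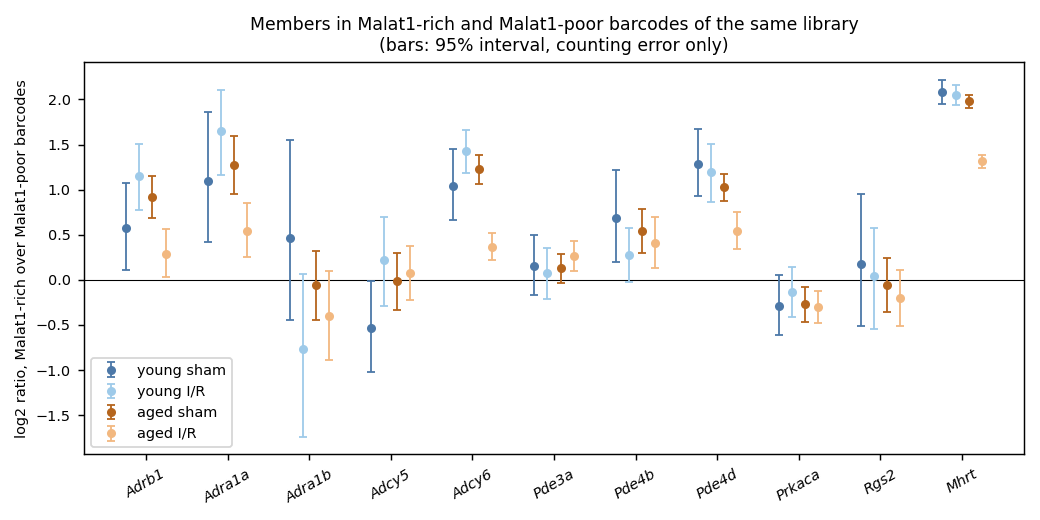
Log2 ratio of CPM without Malat1 between Malat1-rich (at least 5%) and Malat1-poor (under 2%) barcodes (y axis) for the 10 members and Mhrt (x axis), 1 point per library, with 95% intervals for counting error. Adra1a, Adcy6, Pde4d and Adrb1 lie above 0 in all 4 libraries, and Prkaca lies below 0 in all 4, with intervals that include 0 in both young libraries.

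The split was also set beside the ratios of genes in general, as a description. When 8391 genes were ranked by this split in aged sham and cut into 5 groups of like size, the median log2 ratio of young I/R to young sham was 0.15, -0.10, -0.34, -0.58 and -0.99 from the lowest to the highest. Prkaca lay in the lowest group and Adrb1, Adra1a, Adcy6 and Pde4d in the highest. With 8736 genes ranked in aged I/R instead, the medians ran from 0.10 to -0.92, Adra1a and Pde4d lay in the highest group, and Adrb1 and Adcy6 lay in the fourth with Pde3a and Pde4b. For the aged pair, with 8059 genes ranked in young sham, the medians were -0.17, 0.04, 0.14, 0.22 and 0.26. Adra1a, Adcy6 and Pde4d lay in the highest group, with own ratios of 0.93, 0.85 and -0.19. Adrb1, Adra1b and Pde4b lay in the fourth, at 0.11, -0.81 and -0.01, and Pde3a and Rgs2 in the third, at 0.18 and -0.19. Adcy5 and Prkaca lay in the lowest, at 0.23 and 0.15. The Spearman correlation over genes was 0.33 here, against -0.66 and -0.59 in the 2 rankings for the young pair. Gene span moved along too: the median log2 ratio of the young pair was -0.21 for genes of 1 to 10 kb and -0.89 for genes of at least 200 kb. Pde3a, Pde4b and Pde4d span 258180 to 1503514 bases, and their ratios were -0.42, 0.03 and -2.22. For genes of 10 to 50 kb the median was -0.40, with Adrb1 at -1.27, Adcy6 at -1.11 and Prkaca at 0.0019. For genes of 50 to 200 kb it was -0.61, with Adra1a at -1.54, Adra1b at -0.35 and Adcy5 at -0.48. Rgs2, of 1 to 10 kb, was at -0.36. The part of span in the members' ratios was not tested.

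The Malat1 share was then matched by giving 4 classes of barcodes, with limits at 2%, 5% and 10% Malat1, the same weights in each library. The young I/R log2 ratio became -1.53 for Pde4d, -0.82 for Adrb1, -0.75 for Adra1a and -0.43 for Adcy6. Weighted so, all 4 kept their sign, and Adcy6 no longer passed 1.5-fold. Adcy5, short of 1.5-fold as CPM, came to -0.65, which is past it. In the class of 5% to 10% the ratio was 0.04 (-0.23 to 0.31) for Adcy6 and -0.06 (-0.61 to 0.44) for Adra1a. There Adrb1 was at -0.11 (-0.53 to 0.29) and Pde4d at -1.02 (-1.39 to -0.67). In each other class all 4 ratios were negative with intervals below 0. The matched ratios carry no interval, and at 10% or more young I/R had only 13 UMIs of Adra1a and 17 of Adrb1. In the aged pair Adra1a was at 0.70, Adcy6 at 0.67 and Adra1b at -0.75. Between sham libraries the 4 members that were lower in aged hearts came to -0.31 for Adrb1, -0.36 for Adra1a, -0.13 for Adcy6 and -0.06 for Pde4d, each short of 1.5-fold. Of 16 ratios past 1.5-fold in all comparisons, 16 kept their sign and 10 stayed past it. With 1 library per condition, Malat1 share, animal, preparation and condition cannot be told apart. The part of nuclear RNA in the differences between libraries was not tested.

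**Figure D5:**
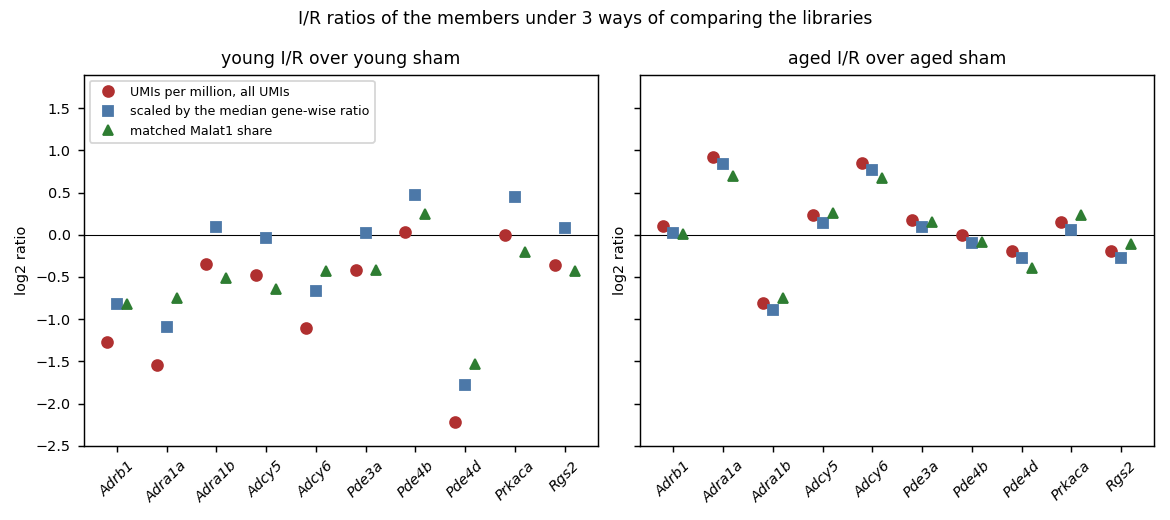
Log2 ratio of I/R to sham (y axis) for the 10 members (x axis) in young (left) and aged hearts (right), as CPM, after centring on the median gene-wise ratio, and at a matched Malat1 share. In the young pair Pde4d lies lowest on each scale, at -2.22, -1.77 and -1.53, and in the aged pair Adra1a lies highest at 0.93, 0.84 and 0.70.

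To place the members among barcodes, 241086 barcodes with at least 200 detected genes were clustered without the members and the other pathway genes. This limit kept 28.4% of the barcodes of young sham, 55.2% of young I/R, 67.9% of aged sham and 98.8% of aged I/R. Ratios within clusters thus set unlike parts of the libraries side by side. The limit alone, without clusters, gave young I/R log2 ratios of -2.56 for Pde4d, -1.84 for Adra1a, -1.51 for Adrb1, -1.34 for Adcy6 and -0.18 for Pde4b. The 16 clusters included 1 macrophage-like, 1 fibroblast-like, 1 mural-like, 1 atrial myocyte-like and 3 erythroid-like cluster by the marker lists, and 9 stayed without a cell type name. None met the rule for cardiomyocyte-like or endothelial-like. Mhrt was among the 10 leading genes of 3 of the unnamed clusters, with 38462 barcodes, and with Lgals4 and Coro6 in each. Of the listed markers, 1 of these clusters had 1 cardiomyocyte and 1 Schwann marker at 1.5-fold or more. Another had 1 mesothelial marker and the third 3 erythroid markers, so the group is not named as myocytes. Neither doublets nor empty droplets were sought.

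The members were present in every cluster type, and so were myocyte transcripts. In the macrophage-like cluster Pde4d was at 95.5 CPM with sham and 29.9 with I/R in young hearts, and 64.4 and 61.7 in aged hearts, near the whole-library levels, and Ttn, the giant sarcomere protein gene, was at 16273 to 31528 CPM there. Ttn is not a gene of macrophages, so these barcodes held RNA of other cells too. How much of the members' UMIs in the cluster came from macrophages was not tested. In the Mhrt-led clusters Pde4d was at 254 CPM with sham and 40.2 with I/R in young hearts, and 116 and 89.9 in aged hearts, above the macrophage-like values in each library, although the intervals overlapped in young I/R.

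Set against all other clustered barcodes of the same library, the Mhrt-led clusters had a mean log2 ratio of 0.95 ± 0.24 (SD, n = 4) for Adra1a, 0.83 ± 0.27 for Pde4d, 0.77 ± 0.18 for Adrb1 and 0.75 ± 0.13 for Adcy6, each above 0 in all 4 libraries. Pde4b was at 0.29 ± 0.30, from 0.71 in young sham to -0.0035 in young I/R. Adra1b, Adcy5, Pde3a and Rgs2 lay between -0.12 and -0.02 with libraries on both sides of 0. Prkaca was at -0.28 ± 0.25, below 0 in all 4, with an interval that included 0 in young I/R (-0.25 to 0.12). Malat1 was at 1.01 ± 0.19 in the same contrast, so the Mhrt-led clusters were also richer in Malat1. This contrast was chosen after the clusters had been seen.

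Within the Mhrt-led clusters the comparison of I/R with sham had the signs of the whole libraries for the 4 members past 1.5-fold in young hearts and the 3 in aged hearts. The log2 ratio in young hearts was -2.66 (-2.90 to -2.42) for Pde4d, -1.75 (-2.14 to -1.38) for Adra1a, -1.37 (-1.66 to -1.08) for Adrb1 and -1.22 (-1.42 to -1.01) for Adcy6. In aged hearts it was 0.63 (0.36 to 0.90) for Adra1a, 0.59 (0.45 to 0.73) for Adcy6 and -0.91 (-1.34 to -0.48) for Adra1b, while Adrb1 was at 0.0083 (-0.21 to 0.23). Other members departed from the whole libraries: in young hearts Pde4b was at -0.63 (-0.89 to -0.36), where the whole libraries gave 0.03, and Prkaca at 0.41 (0.14 to 0.69), where they gave 0.0019. Composition also differed between libraries within the Mhrt-led clusters. Malat1 was at 145284 CPM with sham and 46865 with I/R in young hearts, and 54004 and 67289 in aged hearts. In the same order Mhrt was at 3689, 533, 833 and 1308 CPM, and Ttn at 51859, 27082, 27900 and 41117. The part of this in the members' ratios was not tested. In the macrophage-like cluster Pde4d was at -1.67 (-2.16 to -1.19) and Adcy6 at -1.34 (-1.79 to -0.89) in young hearts. Adra1a was at -1.73 (-2.71 to -0.76) and Adrb1 at -1.20 (-1.85 to -0.55) there. These barcodes held RNA of other cells too, so their ratios cannot be read as those of a second cell type.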

How the data were processed

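Libraries were made by the authors on the 10× Chromium system, and Cell Ranger 6.0.2 with mm10 gave the matrices, per the labels and the submitters' processing notes. The deposited values are whole UMI counts per gene and barcode, with no scaling. Whether intronic reads were counted is not given in the sources used here. Groups came from the labels. UMIs were summed over all barcodes of a library and divided by the library's total (25836175 to 66767829 UMIs). Ratios carry exact conditional intervals (Clopper-Pearson), levels exact Poisson intervals, both at 95%. The calculation was tested on simulated counts. A single library per condition allowed no test and no p-value, and past 1.5-fold describes a size only.

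Shares over all genes use genes that had 20 or more UMIs in the pair compared, and centring those that had 100 or more. Of the other pathway genes, up to 4 per comparison and direction past 1.5-fold with at least 100 UMIs were to be named, and further ones named in the text, such as Adrb3, Adra1d, Adra2a, Chrm2 and Pde4dip, were chosen after their values were seen. Clusters used 10000 UMIs scaling, 2000 variable genes scaled within library, 10 principal components, 20 neighbours and Leiden resolution 1 in scanpy 1.11.5 and igraph 0.11.9. A cluster name needed at least 3 markers at 1.5-fold or more, more than any other class, and either 1 of them among the 10 leading genes or most of the list, a rule set after clusters had been seen. Python 3.11.15, NumPy 2.4.6, SciPy 1.17.1 and pandas 2.3.3 were used. The members and the lists were chosen with earlier results of these data known. No doublet caller was run, empty droplets were not sought, and no correction for RNA from outside the cells was made. The authors' cell names were not used here.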

Additional observations from a re-analysis of the deposited data

Results flagged for a closer look

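As CPM, the I/R ratio went in opposite directions in young and aged hearts for 5 of the 10 members, with intervals on either side of 0. The median over all genes also changed sign, from -0.51 in the young to 0.09 in the aged pair. The share of all genes with opposite signs is not given here. In the young pair 48.0% of genes lay below Adcy5 and 51.3% below Pde3a, and in the aged pair 62.0% and 57.9%. The aged log2 ratio minus the young one was 1.38 for Adrb1 (young -1.27, aged 0.11), 2.47 for Adra1a (-1.54 and 0.93), 0.71 for Adcy5 (-0.48 and 0.23), 1.96 for Adcy6 (-1.11 and 0.85) and 0.60 for Pde3a (-0.42 and 0.18). With 1 library per condition these differences were not tested. After centring on the median gene-wise ratio the young ratio of Pde3a was 0.02 and that of Adcy5 -0.04, and the differences between ages were 0.07 for Pde3a and 0.18 for Adcy5. For Adrb1 the aged ratio was 0.02 (-0.08 to 0.12) after centring, -0.096 by cardiomyocyte markers and 0.0083 (-0.21 to 0.23) within the Mhrt-led clusters, so the opposite direction was not kept, and the aged ratio of Pde3a was -0.027 by cardiomyocyte markers. For Adra1a and Adcy6 the differences between ages were 1.94 and 1.43 after centring, with opposite signs kept.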

How the results depend on the processing

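Of the 40 ratios of members, 35 kept their sign when centred on the median gene-wise ratio, 39 without Gm42418, AY036118, Malat1 and mitochondrial genes in the total, 36 when scaled by the cardiomyocyte markers, 38 with barcodes of at least 200 detected genes only, 39 without barcode sequences found in more than 1 library and 39 without the 1% of barcodes with the most UMIs. In each of these, and at a matched Malat1 share, an alternative added after seeing the data, the 16 ratios past 1.5-fold kept their sign, and 11, 13, 12, 16, 16, 16 and 10 of them stayed past it. Shares of all genes were computed only as CPM and with centring. Counts under the other settings below thus stand without a background share. Each change of scale moved all genes of a comparison by the same amount.

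For young I/R over young sham the median of the members (-0.45) became -0.0064 with centring, -0.29 without the named transcripts and -0.28 by cardiomyocyte markers. The other pathway genes, 6 higher and 52 lower, became 20 and 22 with centring, and at a fold of 2 there were 24 lower. For aged I/R over aged sham a fold of 2 left 0 members higher and 0 lower, and 5 other pathway genes higher and 1 lower. Cardiomyocyte scaling gave 9 other pathway genes higher and 17 lower and turned the median of the members from 0.13 to -0.077. It took 0.20 from the log2 ratio of every gene in this pair, where the median of all genes as CPM was 0.09.

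For aged over young sham, 4 members lower became 1 with centring, 2 by cardiomyocyte markers and 0 at a fold of 2. The median (-0.34) became -0.20 with centring and -0.45 with barcodes of at least 200 genes, where 27 other pathway genes rather than 16 were lower. As CPM, 9 of 114 other pathway genes were higher and 16 lower, beside 8.99% and 19.8% of all genes. At a fold of 2 the other pathway genes were 4 higher and 2 lower, and with at least 100 UMIs 5 were higher in place of 9.

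For aged over young I/R, 5 members higher and 0 lower became 3 and 2 with centring, 3 and 1 without the named transcripts and by cardiomyocyte markers, 3 higher at a fold of 2 and 1 lower with barcodes of at least 200 genes. The median (0.61) became 0.18, 0.43 and 0.32 under the first 3. Of 115 other pathway genes, 48 were higher and 4 lower as CPM, beside 42.7% and 4.38% of all genes. With centring they were 25 and 12, beside 20.9% and 14.6%. The counts became 7 lower without the named transcripts, 31 and 9 by cardiomyocyte markers and 25 and 1 at a fold of 2. The causes were not tested.

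In the Mhrt-led contrast, Leiden resolution 2 moved no member by more than the SD over libraries. Scaling genes over all libraries together moved Adcy6 to 0.95, Pde4d to 1.15, Prkaca to -0.54 and Rgs2 to -0.15. Each of these moved by more than its SD, with no change of sign. Adrb1, at 0.93, and Adra1a, at 1.15, moved by less than theirs under this scaling. That setting made a very different group of barcodes: 42.7% of those of young sham, 1.30% of young I/R, 1.82% of aged sham and 12.9% of aged I/R, against 27.9%, 15.0%, 16.6% and 12.6%. No paired analysis was possible because each condition has 1 library.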
